A study of Homo sapiens with 8 samples.

Results

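The U4/U6.U5 tri-snRNP is the preassembled particle that carries the U4, U6 and U5 small nuclear RNAs into the spliceosome, and 10 genes that encode its specific proteins were examined in U251 cells. They were PRPF3, PRPF4 and PRPF31 of the U4/U6 particle, PRPF8, SNRNP200, EFTUD2, PRPF6 and DDX23 of the U5 particle, and SART1 and USP39, which join when the particles associate. The genes were chosen by name, with their LLY-283 against vehicle values already known, so those values are given as a description and no p-value is printed for any of the 10. Each had 1 row among the 61906 genes listed, and all 10 were among the 14478 genes tested (those averaging 1 TPM or more). U251 is a human glioblastoma cell line, grown here in medium with FBS and labelled WT, so the values describe 1 line at 1 dose and 1 time. The cultures received DMSO (vehicle) or 100 nM of LLY-283, an inhibitor of the arginine methyltransferase PRMT5, for 24 h, with 4 biological replicates in each group. Poly(A) RNA was sequenced, so the small nuclear RNAs of the particle, which carry no poly(A) tail, were not assessed.

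In the spliceosome, the tri-snRNP joins a pre-mRNA on which U1 and U2 already mark the ends of the intron. DDX23 then displaces U1, SNRNP200 unwinds U4 from U6, and U6 pairs with U2 to form the catalytic centre, which PRPF8 holds. PRMT5 places symmetric dimethyl groups on Sm proteins, the ring that every one of these particles except U6 carries. Inherited variants of PRPF3, PRPF4, PRPF6, PRPF8, PRPF31 and SNRNP200 are known causes of retinitis pigmentosa, although all cells use these proteins.

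The values are TPM, a share of the transcripts of a library that is corrected for transcript length and can therefore be compared between genes. The 8 libraries sum to 1000000 or 1000001 TPM, the depth of sequencing is unknown, and no counting interval can be given. The correlation of log2(TPM + 0.1) between replicates was between 0.963 and 0.971. Of the glioma markers, VIM lay between 4018.59 and 4390.24 TPM, and its groups overlapped, as did those of SOX9. GFAP lay between 778.18 and 839.89 TPM with vehicle and between 662.82 and 700.97 TPM with LLY-283. NES was also lower with LLY-283 and CD44 higher, both without overlap. The leukocyte marker CD3E and the muscle marker MYOD1 were listed at 0 in all libraries. The highest value of PTPRC, PECAM1, EPCAM or ALB was 0.2 TPM. PRMT5 was at 100.0 ± 5.03 TPM with vehicle and 100.4 ± 4.91 TPM with LLY-283 (SD, n = 4), and its change of 0.01 on the log2 scale did not pass (limma adjusted p = 0.944). Genes of the mitochondrial genome took 7.19% of the TPM in LLY-283 replicate 4 and between 10.2% and 11.0% in the other 7 libraries.

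All 10 genes had a higher mean with LLY-283 than with vehicle. PRPF3 increased the most, 2.36-fold, followed by DDX23 at 1.55-fold, while PRPF8, SNRNP200, PRPF4 and SART1 formed a group with increases between 1.37-fold and 1.43-fold. PRPF6 and USP39 were 1.19-fold and 1.14-fold higher. PRPF31 and EFTUD2 were 1.05-fold and 1.03-fold higher, and these were the only members whose groups overlapped. The median log2 fold change of the 10 genes was 0.46, against -0.05 for all genes tested. Under limma with Benjamini-Hochberg adjustment over all genes tested, 8 of the 10 were called increased (adjusted p-value under 0.05), against 8.61% of all genes called increased and 17.6% called decreased. PRPF3 and DDX23 also exceeded a change of 1.5-fold, against 0.394% of all genes. In the same 8 members, all LLY-283 values lay above all vehicle values, which held for 9.63% of the genes tested. Because this contrast was known when the genes were chosen, nothing is drawn from these shares. The balance of calls over all genes depended on the scaling, with 1247 increases and 2541 decreases as deposited, 1927 and 1866 when scaled by the median of ratios, 1871 and 1820 when quantile normalized, and 2801 and 1644 once the dependence on GC and length was taken out. Each of the 10 members had a positive log2 fold change under all 19 alternatives tried. Without LLY-283 replicate 4, 8 members were likewise called increased.

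**Figure D1:**
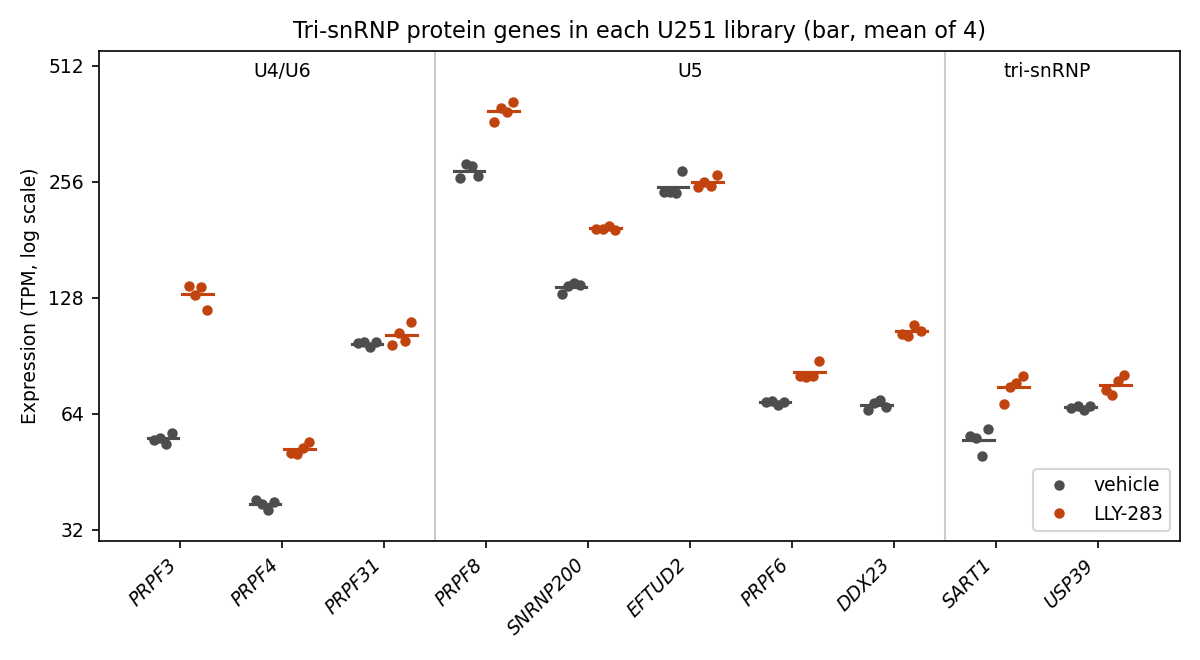
Expression of the 10 tri-snRNP protein genes in each library, in TPM on a log scale. Points are single libraries (grey, vehicle; orange, LLY-283; replicates 1 to 4 from left to right) and bars are the means of 4; the groups are apart for all genes except PRPF31 and EFTUD2.

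The plot of expression by library shows the 10 genes side by side, ordered by particle. Among them, PRPF3 shows the widest gap between the groups, and EFTUD2 and PRPF31 show none.

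None of the 8 short motifs searched was found in the promoter windows of all members that have one. RefSeq start windows on GRCh38.p14 (250 bases before to 50 bases after a start) were found for 9 of the 10 genes, all but PRPF3, with 12 windows in all because EFTUD2 and USP39 have several. The 250 bases before the start are shown for DDX23 and PRPF8, the largest increases among the genes with a window, and for PRPF31 and EFTUD2, the smallest. For EFTUD2 the window with the start further upstream is shown. The other one, at chr17:44899369-44899618, also holds CTTCCG and GGGCGG before its start, 54 and 57 bases away. Each is written along the strand of its gene, and capitals mark matches to the letters searched on either strand.
DDX23 (chr12:48852164-48852413, minus strand): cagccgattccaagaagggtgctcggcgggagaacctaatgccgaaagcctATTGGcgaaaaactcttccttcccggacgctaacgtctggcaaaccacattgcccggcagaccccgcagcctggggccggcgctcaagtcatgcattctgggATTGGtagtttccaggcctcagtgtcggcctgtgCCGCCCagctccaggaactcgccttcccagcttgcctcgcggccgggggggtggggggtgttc
PRPF8 (chr17:1684868-1685117, minus strand): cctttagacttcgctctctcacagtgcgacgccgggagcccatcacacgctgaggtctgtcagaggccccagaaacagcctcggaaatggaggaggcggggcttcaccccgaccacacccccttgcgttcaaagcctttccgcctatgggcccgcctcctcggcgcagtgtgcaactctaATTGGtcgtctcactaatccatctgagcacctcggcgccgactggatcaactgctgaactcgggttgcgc
PRPF31 (chr19:54115504-54115753, plus strand): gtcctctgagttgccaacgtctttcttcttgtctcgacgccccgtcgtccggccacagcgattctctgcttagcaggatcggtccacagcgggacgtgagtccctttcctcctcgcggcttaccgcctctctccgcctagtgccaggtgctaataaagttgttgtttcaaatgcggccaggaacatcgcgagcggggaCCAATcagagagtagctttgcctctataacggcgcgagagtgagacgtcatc
EFTUD2 (chr17:44899446-44899695, minus strand): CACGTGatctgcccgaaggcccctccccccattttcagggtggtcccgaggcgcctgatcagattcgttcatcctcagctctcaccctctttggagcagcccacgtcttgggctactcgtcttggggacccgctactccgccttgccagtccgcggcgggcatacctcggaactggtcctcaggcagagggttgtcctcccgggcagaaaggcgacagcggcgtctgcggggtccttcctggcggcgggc

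The letters searched on both strands were ACTTCCGG and the shorter CTTCCG it contains (ETS factors), GCATGCGC (NRF1), AAGATGGCG (YY1), CCAAT (the CCAAT box), TATAAA (the TATA box), CACGTG (the E-box) and GGGCGG (the GC box). CCAAT was found in windows of DDX23, PRPF8, PRPF31 and USP39, and in 34.6% of all 35116 windows of the table. Here and below a member is named if any of its windows matched, whereas the percentages are shares of single windows. Of the 4 sequences shown, the CCAAT letters are thus present in the pair with the largest increases and in PRPF31, whose groups overlapped. DDX23 carries them 97 and 199 bases before its start and PRPF8 70 bases before its start, all on the opposite strand, and PRPF31 52 bases before its start. GGGCGG was found in windows of DDX23, EFTUD2, PRPF4, PRPF6, SNRNP200 and USP39 (45% of all windows), and CTTCCG in windows of EFTUD2, PRPF4, PRPF6, SART1, SNRNP200 and USP39 (19.5%). ACTTCCGG occurred in PRPF6, SART1 and USP39 (4.14%), GCATGCGC in SART1 (3.05%) and CACGTG in EFTUD2 (7.26%). In USP39, ACTTCCGG and CTTCCG were only in the window at chr2:85611855-85612154, and CCAAT only in that at chr2:85615936-85616235. Both windows lie inside the gene, which starts at 85602856. By the GENCODE positions, the windows of SNRNP200, DDX23 and PRPF31 also lie inside their genes. AAGATGGCG occurred in DDX23, 24 bases into the transcript (1.75% of all windows). No member window held TATAAA, which 11.5% of all windows hold. A match is a match of letters only, and binding was not measured.

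PRPF3 (chr1:150321479-150353233, GRCh38, plus strand) encodes a U4/U6 protein that binds PRPF4 and the U4/U6 RNA duplex. Its values in replicates 1 to 4 were 54.83, 55.52, 53.55 and 57.05 TPM with vehicle and 137.08, 130.48, 136.35 and 118.72 TPM with LLY-283. The lowest LLY-283 value, in replicate 4, was still above 2 times the highest vehicle value. On the log2(TPM + 0.1) scale the increase was 1.24 (standard error 0.047, 95% interval 1.13 to 1.34, n = 4 each), and PRPF3 ranked 78 among the genes tested by the size of the increase.
PRPF4 (chr9:113275642-113294009, plus strand), a WD-repeat protein and the partner of PRPF3, was expressed at 38.12, 37.35, 35.94 and 37.7 TPM with vehicle and 50.59, 50.28, 52.31 and 53.92 TPM with LLY-283. The vehicle values lay close together, and the groups did not overlap. Its log2 fold change was 0.47 (standard error 0.036, 95% interval 0.39 to 0.55).
PRPF31 (chr19:54115410-54131719, plus strand) binds U4 RNA together with SNU13 and helps to hold U4/U6 and U5 together. It was measured at 97.51, 98.07, 95.21 and 98.41 TPM with vehicle and 96.81, 103.74, 98.92 and 110.62 TPM with LLY-283. LLY-283 replicate 1 fell inside the vehicle range, and LLY-283 replicate 4 was the highest. The log2 fold change was 0.07 (standard error 0.042), with a 95% interval of -0.02 to 0.17, that is, of 0.986-fold to 1.12-fold. With the dependence on GC and length taken out it was 0.17, and PRPF31 was then called increased. The median of all genes was also higher in that alternative, at 0.03 instead of -0.05.

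PRPF8 (chr17:1650629-1684867, minus strand), the scaffold of the catalytic centre, was the most abundant of the 10 transcripts. It was at 261.15, 284.72, 280.97 and 265.16 TPM with vehicle and 365.57, 397.13, 389.0 and 412.74 TPM with LLY-283. Every LLY-283 library exceeded every vehicle library, and the log2 fold change was 0.52 (standard error 0.043, 95% interval 0.42 to 0.61).
SNRNP200 (chr2:96274338-96321271, minus strand), the helicase that unwinds U4 from U6, had 130.65, 137.48, 139.79 and 137.95 TPM with vehicle and 192.98, 193.5, 196.93 and 191.87 TPM with LLY-283. Its LLY-283 libraries were the most uniform of the 10 genes relative to their mean (194 ± 2.18 TPM, SD, n = 4), and its log2 fold change was 0.51 (standard error 0.028, 95% interval 0.44 to 0.57).
EFTUD2 (chr17:44849948-44899445, minus strand) is the GTPase that sits with PRPF8 and SNRNP200 in the U5 particle. It showed 240.93, 240.44, 238.66 and 273.58 TPM with vehicle and 248.29, 255.96, 250.14 and 266.65 TPM with LLY-283. The highest of the 8 values belonged to vehicle replicate 4, and the log2 fold change was 0.04 (standard error 0.047, 95% interval -0.06 to 0.15, or 0.957-fold to 1.11-fold). With single libraries left out it lay between 0.02 (without LLY-283 replicate 4) and 0.09 (without vehicle replicate 4), and it was 0.11 with the dependence on GC and length taken out.

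DDX23 (chr12:48829756-48852842, minus strand) encodes the DEAD-box helicase that releases U1 from the intron. Its levels were 65.6, 68.32, 69.55 and 66.57 TPM with vehicle and 103.18, 102.05, 108.52 and 105.05 TPM with LLY-283. The groups were far apart, with each spread over only a few TPM, and the log2 fold change was 0.63 (standard error 0.032, 95% interval 0.56 to 0.70).
PRPF6 (chr20:63981132-64033100, plus strand), a repeat protein that bridges U5 and U4/U6, was found at 68.86, 69.25, 67.4 and 68.66 TPM with vehicle and 80.25, 79.66, 80.09 and 87.92 TPM with LLY-283. Its LLY-283 replicates 1 to 3 were nearly equal and replicate 4 stood above them, without changing the order of the groups. Its log2 fold change was 0.26 (standard error 0.037, 95% interval 0.17 to 0.34).
SART1 (chr11:65961728-65980137, plus strand), a protein of the assembled tri-snRNP, was at 55.88, 55.37, 49.62 and 58.48 TPM with vehicle and 67.68, 75.17, 76.91 and 80.26 TPM with LLY-283. Vehicle replicate 3 and LLY-283 replicate 1 were the lowest of their groups, the means were 54.8 ± 3.74 and 75.0 ± 5.32 TPM, and SART1 had a log2 fold change of 0.45 (standard error 0.063, 95% interval 0.31 to 0.59).
USP39 (chr2:85602856-85649283, plus strand) resembles ubiquitin proteases and is needed for a stable tri-snRNP. Vehicle values were 66.14, 66.99, 65.62 and 67.17 TPM, and LLY-283 values were 73.92, 71.76, 77.86 and 80.67 TPM. The groups did not overlap, and the log2 fold change was 0.19 (standard error 0.039, 95% interval 0.10 to 0.28), or 0.29 with the dependence on GC and length taken out.

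**Figure D2:**
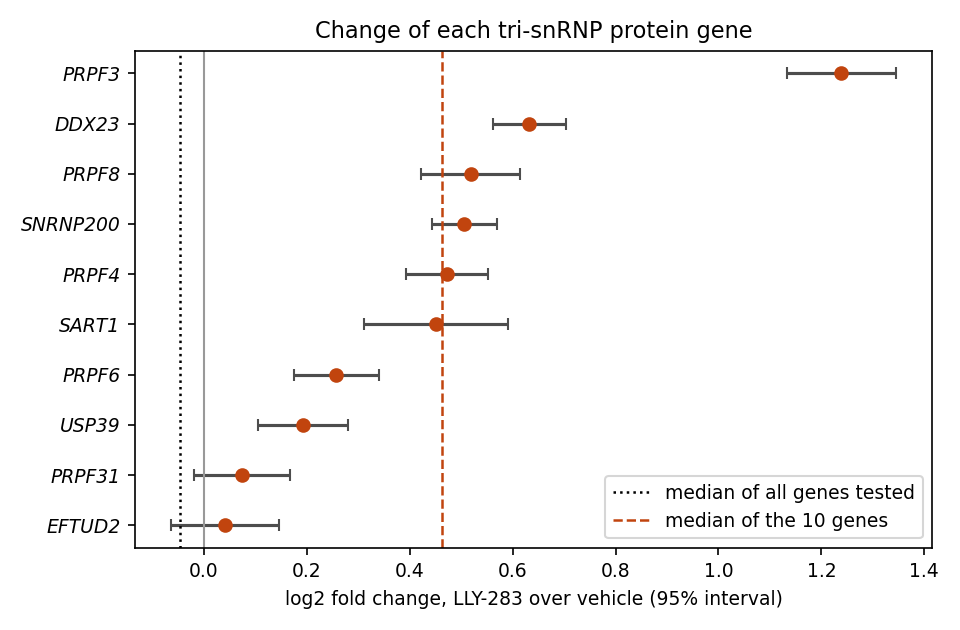
Log2 fold change of each tri-snRNP protein gene, LLY-283 over vehicle, with its 95% interval from limma on log2(TPM + 0.1) (4 libraries per group). The dashed line is the median of the 10 genes (0.46) and the dotted line that of all genes tested (-0.05); the intervals of PRPF31 and EFTUD2 include 0.

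The plot of changes shows that the interval of PRPF3 lies apart from those of the other 9 genes. Those of PRPF8, SNRNP200, PRPF4 and SART1 overlap one another, that of DDX23 overlaps those of PRPF8, SNRNP200 and SART1 but not that of PRPF4, and the intervals of PRPF31 and EFTUD2 are the lowest. The retinitis pigmentosa genes covered nearly the whole range, from PRPF31 at 0.07 to PRPF3 at 1.24 on the log2 scale.

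The order of the levels differed between the groups. With vehicle it was PRPF8, EFTUD2, SNRNP200, PRPF31, PRPF6, DDX23, USP39, PRPF3, SART1 and PRPF4, with means from 273 TPM down to 37.3 TPM. In that order PRPF8 and EFTUD2 overlapped, as did PRPF6 with DDX23, DDX23 with USP39, and PRPF3 with SART1. With LLY-283, PRPF3 stood in place 4 instead of 8, at 131 ± 8.49 TPM, below SNRNP200 and above all values of DDX23. DDX23 stood in place 5, and its values overlapped those of PRPF31 below it. PRPF6, USP39 and SART1 overlapped in turn, and PRPF4 was again the lowest at 51.8 ± 1.69 TPM. The summed level of the 10 genes was 1105.1 ± 22.0 TPM with vehicle and 1462.9 ± 37.7 TPM with LLY-283 (SD, n = 4 each). PRPF3 contributed 5.0% ± 0.0851 of that sum with vehicle and 8.95% ± 0.778 with LLY-283.

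Ratios within a library, which do not depend on its scaling, described how partners moved against each other. The PRPF3 to PRPF4 ratio was 1.44, 1.49, 1.49 and 1.51 in the vehicle libraries and 2.71, 2.60, 2.61 and 2.20 in the LLY-283 libraries. For PRPF3 and PRPF31 the ratio went from 0.568 ± 0.00824 to 1.28 ± 0.154, so that PRPF3 was the lower of the pair with vehicle and the higher with LLY-283 in all 4 libraries of each group. In the U5 core, the PRPF8 to EFTUD2 ratio was 1.10 ± 0.101 with vehicle and 1.53 ± 0.0397 with LLY-283, without overlap. By contrast, PRPF8 and SNRNP200 kept a ratio of 2.00 ± 0.0611 with vehicle and 2.02 ± 0.110 with LLY-283, and these groups overlapped.

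**Figure D3:**
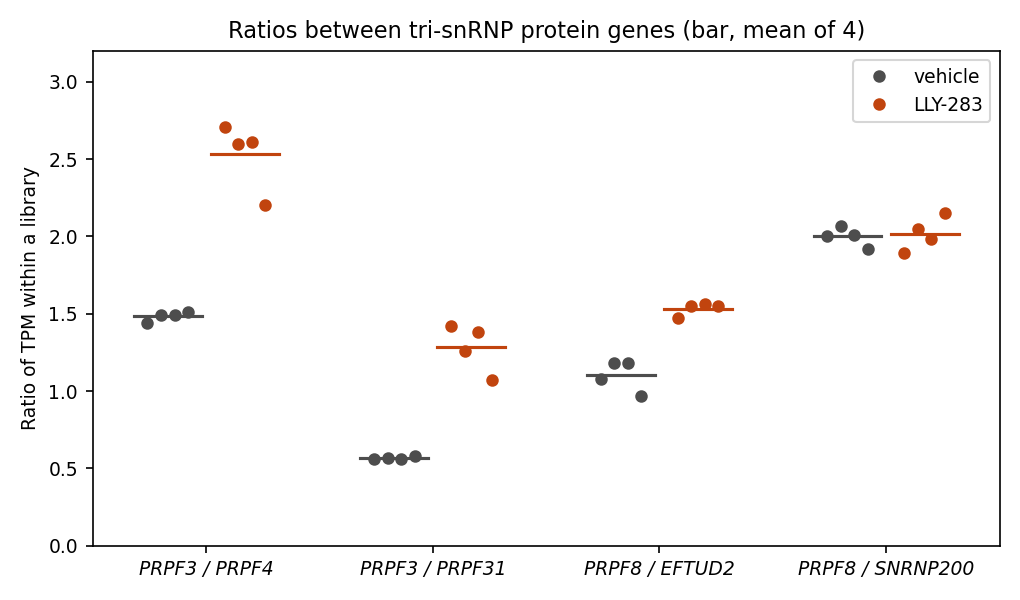
Ratio of the TPM of 2 genes within each library (points; grey, vehicle; orange, LLY-283) with the mean of 4 (bars). The groups are apart for PRPF3 over PRPF4, PRPF3 over PRPF31 and PRPF8 over EFTUD2, and overlap for PRPF8 over SNRNP200.

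The plot of ratios shows LLY-283 replicate 4 as the lowest of its group for both ratios with PRPF3. Of the 4 LLY-283 libraries, replicate 4 held the highest value of 7 members and the lowest of PRPF3 and SNRNP200, and it is the library with the low mitochondrial share. Without it, the log2 fold change was 1.28 for PRPF3, 0.22 for PRPF6 and 0.04 for PRPF31, and with mitochondrial genes left out of the TPM it was 1.23 for PRPF3, 0.25 for PRPF6 and 0.06 for PRPF31. The part of the mitochondrial share in these values was not tested further.

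The member genes share long exon chains. Their canonical transcripts in GENCODE release 44 have 13 (USP39) to 45 (SNRNP200) exons with a median of 18.5, against 9 for the 12084 protein-coding genes tested, and all 10 lie above that median. Their transcript lengths (median 3151.5 against 3369.5 bases) and gene lengths (median 32997 against 34019.5 bases) were close to those of all genes, and their GC content (median 52.3% against 47.9%) was higher in 8 of the 10.
Some members overlap other genes, and whether reads were assigned by strand is not given in the sources used here, so reads of such pairs may not be told apart. PRPF4 starts 70 bases from CDC26, which lies on the opposite strand and encodes a subunit of the anaphase-promoting complex. CDC26 was at 60.8 ± 1.77 TPM with vehicle and 59.1 ± 2.27 TPM with LLY-283 (log2 fold change -0.04, limma adjusted p = 0.452), so PRPF4 was higher and its divergent neighbour did not pass the test. USP39 contains C2orf68 on the opposite strand, whose mean was 26.0 ± 1.6 TPM with vehicle and 18.4 ± 0.588 TPM with LLY-283. C2orf68 fell (log2 fold change -0.495, limma adjusted p = 0.000264) while USP39 was higher. The other overlapping genes tested did not pass. They were TFPT beside PRPF31 (log2 fold change 0.15, adjusted p = 0.129), CCDC103 beside EFTUD2 (-0.16, adjusted p = 0.423) and TMEM150A beside USP39 (-0.30, adjusted p = 0.137, limma). PRPF31-AS1, antisense to PRPF31, was between 0.04 and 0.16 TPM and was not tested.

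By the mean absolute difference over the 8 libraries of log2(TPM + 0.1) from the vehicle mean, no gene tested came within 0.1 of the pattern of PRPF3. The nearest were the pseudogene NAP1L4P1 (difference 0.196), EDN2, which encodes endothelin 2 (0.197), and ENSG00000228463 (0.213), all at far lower levels. For DDX23, 25 genes came within 0.1. Among them were THBS1, which encodes thrombospondin 1 (0.0603), and TENT2, which encodes a poly(A) polymerase (0.0634).

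Beyond the members, 54 other genes of the tri-snRNP, its assembly and the later spliceosome were compared in 6 lists, with adjustment over all genes tested. Of these, 21 rose, 3 fell and 30 did not pass (limma, adjusted p-value under 0.05), with a median log2 fold change of 0.10. Over all genes tested, 8.61% were called increased and 17.6% decreased, with a median of -0.05, and each count below stands against those shares. With the dependence on GC and length taken out, 32 of the 54 were called increased, where the increases over all genes went from 1247 to 2801. The median of all genes was then 0.03. The lists were written with earlier results of these data known.
Among 9 other U4/U6 proteins, PPIH rose and LSM8 fell, and the other 7 did not pass. PPIH, a cyclophilin that binds PRPF4 next to PRPF3, went from 109 ± 5.02 to 145 ± 8.49 TPM (0.41 on the log2 scale, standard error 0.048, limma adjusted p = 0.000472). Its increase lay close to that of PRPF4. SNU13, the partner of PRPF31 on U4, was at 86.3 ± 5.64 and 96.4 ± 6.69 TPM (log2 fold change 0.16, limma adjusted p = 0.0745). It passed when scaled by the median of ratios (adjusted p = 0.0375) and with the dependence on GC and length taken out (adjusted p = 0.0079). LSM8, the member that sets the nuclear LSM ring on U6 apart from the cytoplasmic one, had 44.1 ± 3.53 TPM with vehicle and 29.4 ± 2.36 TPM with LLY-283, a change of -0.58 on the log2 scale (standard error 0.071, limma adjusted p = 0.000515). The 6 other genes of that ring, LSM2 to LSM7, had log2 fold changes between -0.10 and 0.13 and did not pass. Some passed under an alternative. LSM2 was called decreased with mitochondrial genes left out (adjusted p = 0.0405), and LSM7 without LLY-283 replicate 4 (adjusted p = 0.0311, limma). LSM5 was called increased when scaled by the median of ratios (adjusted p = 0.0328, limma). With the dependence on GC and length taken out, LSM3, LSM4 and LSM5 were called increased (adjusted p between 0.0135 and 0.0467, limma). In that alternative the log2 fold changes of LSM2 and LSM7 were positive, at 0.03 and 0.06, and neither passed.
None of the 3 other U5 proteins passed under limma, or had an unadjusted p-value under 0.05. SNRNP40 was at 119 ± 3.42 and 118 ± 5.59 TPM, TXNL4A at 77.4 ± 0.931 and 78.5 ± 2.64 TPM, and CD2BP2 at 45.2 ± 1.32 and 46.0 ± 1.7 TPM. Their fitted log2 fold changes, between -0.02 and 0.02, lie nearer to that of EFTUD2 than to those of PRPF8, SNRNP200 and DDX23, a difference between genes that was not tested. With the dependence on GC and length taken out, all 3 were at 0.09 and EFTUD2 was at 0.11. The 3 did not pass there either (adjusted p between 0.0632 and 0.129, limma).

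In the list of other tri-snRNP and B complex proteins, 5 of 9 rose and WBP4 fell (all genes, 8.61% up and 17.6% down). The largest increase was that of PRPF4B, a kinase that phosphorylates PRPF6 and PRPF31, with 42.3 ± 1.75 TPM in vehicle and 53.2 ± 4.05 TPM in LLY-283 libraries (0.33 on the log2 scale, limma adjusted p = 0.00328). IK, SNRNP27, SMU1 and MFAP1 rose by 0.16, 0.15, 0.12 and 0.11 on the log2 scale. IK, SNRNP27 and MFAP1 were at 0.26, 0.25 and 0.20 with the dependence on GC and length taken out. SMU1 did not pass without any one of vehicle replicates 2, 3 and 4 and LLY-283 replicates 1, 3 and 4 (adjusted p between 0.0509 and 0.0863), nor did MFAP1 without any one of vehicle replicates 1, 2 and 3 and LLY-283 replicates 2 and 3 (adjusted p between 0.0507 and 0.0736). WBP4, a proline-motif binding protein, was at 14.0 ± 0.753 TPM with vehicle and 11.8 ± 0.37 TPM with LLY-283, a log2 fold change of -0.25 (limma adjusted p = 0.00762). That call was lost after quantile normalization (-0.16, adjusted p = 0.0784).
Of 12 factors for assembly, recycling and deubiquitination, 5 rose and 7 did not pass, against the 8.61% of all genes called increased. SART3, which reunites U4 with U6 after splicing, rose by 0.37 on the log2 scale, with 47.2 ± 0.912 TPM in vehicle and 61.1 ± 0.3 TPM in LLY-283 libraries (standard error 0.028, limma adjusted p = 5.3e-05). The ubiquitin proteases that act with SART3 on PRPF3 and PRPF31 did not pass, USP4 with a log2 fold change of -0.06 (adjusted p = 0.333) and USP15 with one of 0.07 (adjusted p = 0.438, limma). USP15 lay between 0.02 and 0.12 with single libraries left out, and USP4 was at 0.01 with the dependence on GC and length taken out. Neither passed under any alternative (lowest adjusted p = 0.13 for USP15 and 0.186 for USP4, limma). ECD (0.29), PIH1D1 (0.28), TSSC4 (0.22) and COIL (0.20), factors linked to U5 assembly or, for COIL, to the Cajal bodies where tri-snRNPs form, also rose. The calls of COIL and TSSC4 did not hold without some of the libraries. COIL did not pass without any one of vehicle replicates 1, 2 and 4 and LLY-283 replicates 1, 3 and 4 (adjusted p between 0.0636 and 0.0889), and TSSC4 did not without vehicle replicate 3 (adjusted p = 0.05, limma).
In the PRP19 complex and its partners, which act once the tri-snRNP has been remodelled, 7 of 12 rose and none fell, against 8.61% and 17.6% of all genes. ISY1 (log2 fold change 0.31, adjusted p = 0.00409, limma) and SYF2 (0.26, adjusted p = 0.00239) came first, followed by XAB2 (0.25), AQR (0.22), CWC15 (0.17), CTNNBL1 (0.15) and CDC5L (0.14), and the lowest was PPIE (-0.06, adjusted p = 0.291). CWC15 and CTNNBL1 were at 0.27 and 0.26 with the dependence on GC and length taken out. The calls of 3 of the 7 were lost without single libraries. CTNNBL1 did not pass without any one of the libraries except LLY-283 replicate 1 (adjusted p between 0.0815 and 0.113), AQR did not pass without any one of vehicle replicates 1, 2 and 3 and LLY-283 replicates 2, 3 and 4 (adjusted p between 0.0512 and 0.0746), and CDC5L did not without vehicle replicate 4 (adjusted p = 0.0553, limma). Among 9 other spliceosomal RNA helicases, DHX15 (0.30, adjusted p = 0.000552), DDX46 (0.27, adjusted p = 0.00118) and DHX16 (0.14, adjusted p = 0.0156) rose. DDX39B, which acts before the tri-snRNP arrives and in mRNA export, was at 386 ± 4.84 TPM with vehicle and 335 ± 4.21 TPM with LLY-283, a change of -0.20 on the log2 scale (limma adjusted p = 0.000364) that shrank to -0.09 with the dependence on GC and length taken out (adjusted p = 0.0253). Of PRMT5 and its 4 cofactors, RIOK1 rose by 0.17 (adjusted p = 0.0287, limma), and WDR77 had a log2 fold change of -0.10 (adjusted p = 0.0615). RIOK1 did not pass without any one of vehicle replicates 2, 3 and 4 and LLY-283 replicates 1 and 3 (adjusted p between 0.0596 and 0.0799) or with no filter on low values (adjusted p = 0.0512). WDR77 passed as decreased without LLY-283 replicate 4 (adjusted p = 0.0334) and with mitochondrial genes left out (adjusted p = 0.035). Over the 19 alternatives its log2 fold change lay between -0.12 and -0.01, with adjusted p up to 0.831 (limma).

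**Figure D4:**
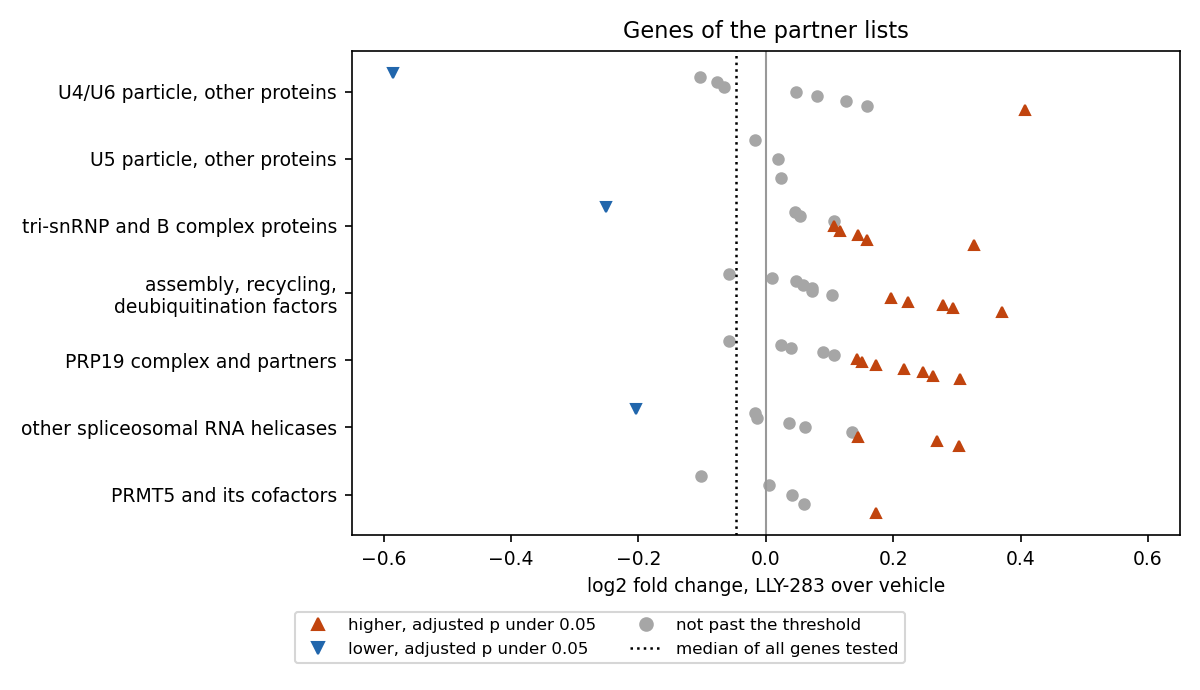
Log2 fold change, LLY-283 over vehicle, of the genes of the 7 partner lists (triangles, adjusted p-value under 0.05 in limma; circles, not past the threshold). The dotted line is the median of all genes tested (-0.05); LSM8 lies furthest to the left at -0.58 and PPIH furthest to the right at 0.41.

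The plot of the partner lists shows most calls on the side of higher expression, with LSM8, WBP4 and DDX39B as the exceptions. None of these 59 genes reached the fold change of PRPF3 or DDX23.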

How the data were processed

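RNAseq of 8 U251 libraries was analysed from gene-level TPM. The authors aligned adapter-trimmed reads (Cutadapt 1.18) to GRCh38 using STAR and quantified GENCODE release 41 genes with RSEM, and the deposited values are TPM. The submitters' notes give STAR 2.7.0f and RSEM 1.3.1, which differ from the versions in the methods. TPM keeps no read depth, and a gene's TPM moves with the composition of its library.

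Genes averaging 1 TPM or more (14478) were compared on log2(TPM + 0.1) with limma 3.58.1 (eBayes with trend, R 4.3.3), with Benjamini-Hochberg adjustment over all of them. On simulated data with 14478 genes, 78 of 100 genes changed by 0.58 and 85 of 100 changed by 1 (log2) were recovered, with 11 unchanged genes called.

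The members, the lists and the tests were chosen with earlier results of these data known. Named besides the members are some of the genes called in a list, the largest change of a list in each direction, genes among the 3 most like PRPF3 and DDX23, and genes overlapping a member. Also named are PRMT5, the target of LLY-283, the cell type markers, and RPAP3, PRPF19 and DDX42, which each had a value set apart. Of the most alike genes, 1 is not reported here. SNU13, TXNL4A, USP15 and the LSM range were added after their values were seen. Of the genes tested, 14457 matched GENCODE release 44 by identifier. Alternatives were pseudocounts of 0.5 and 1, filters, scalings, variance models, the replicate block, mitochondrial genes left out and single libraries left out. Taking out the dependence on GC content and length (splines with 4 degrees of freedom) was added after seeing the data.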

Additional observations from a re-analysis of the deposited data

Results flagged for a closer look

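Of 152 groups of 4 libraries examined, 12 held a value set apart from the other 3, where chance gives about 5% of groups. The groups share libraries and some share genes, so they are not independent and nothing is drawn from the count. Among the members, vehicle replicate 4 of EFTUD2 (273.58 TPM) and LLY-283 replicate 4 of PRPF6 (87.92 TPM) stood above the rest of their groups. Among the LLY-283 libraries, replicate 1 stood below the others for the PRPF8 to EFTUD2 ratio (1.47), and replicate 4 for the mitochondrial share (7.19%). In the partner lists, single high values were those of SNRNP27 (68.24 TPM), SYF2 (68.67 TPM) and DDX46 (66.07 TPM) with vehicle and of MFAP1 (119.16 TPM) and PRPF19 (117.5 TPM) with LLY-283. Single low values were those of RPAP3 with vehicle (40.98 TPM) and of COIL (15.03 TPM) and DDX42 (74.26 TPM) with LLY-283.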

How the results depend on the processing

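Over 19 alternatives, 8 members were called increased in 18 and 9 in the one with the GC and length trend removed, which added PRPF31, and PRPF3 and DDX23 were the 2 members past 1.5-fold in each. The median log2 fold change of the members was 0.53 with that trend removed, and lay between 0.43 and 0.49 without single libraries. That of all genes was 0.03 with the trend removed and -0.05 in the main fit. The calls over all genes moved to 1871 increases after quantile normalization, 1927 with median-of-ratios scaling, and 2801 increases and 1644 decreases with the GC and length trend removed, where 32 of the 54 genes of the 6 tri-snRNP and spliceosome lists were called increased. The causes of these shifts were not tested. Without single libraries, 16 to 19 of the 54 were called increased and 3 to 4 decreased, and all genes called ranged from 888 to 1508 increases and from 1889 to 2659 decreases. Of the 24 genes called among these 54, which leave out the list of PRMT5 and its cofactors, 16 passed under every alternative. The other 8 (CTNNBL1, AQR, CDC5L, MFAP1, SMU1, COIL, TSSC4 and WBP4) lost the call as given above, and CTNNBL1, AQR and SMU1 also with the replicate block (adjusted p = 0.0511, 0.065 and 0.0715). RIOK1, called in the PRMT5 list, also lost its call as given above. With no filter on low values, MFAP1, SMU1, COIL, CTNNBL1 and AQR lost it (adjusted p between 0.0569 and 0.0896), as did MFAP1 and CTNNBL1 with eBayes without trend (adjusted p = 0.063 and 0.0722). With the replicate block, 8 members and 18 of the 54 genes were called increased, and 1095 increases and 2201 decreases were called over all genes. The same replicate numbers did not deviate together (r between -0.085 and 0.032), so they were not treated as pairs. TPM gives no depth, so changes of low genes carry an unknown counting error.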
